A study of Rattus norvegicus with 3 samples.

Results

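Crushed sciatic nerve of rats given AKBA was compared with nerve of sham-operated rats. AKBA stands for the acetylated 11-keto form of beta-boswellic acid, a triterpene of Boswellia resin. Of the 3 RNA libraries of the study, 2 entered this comparison, 1 for each group. The third came from crushed nerve without AKBA and is given beside the values. All animals were male Sprague-Dawley (SD) rats, and all 3 libraries carry the label of 30 days after injury, the sham library too. In the crushed groups the exposed nerve was squeezed with vascular forceps, while in the sham group it was exposed and left intact. The untreated crushed library carries only the treatment label control and was read as crushed nerve without AKBA from the letter M of its title and from the column key of the series. The dose, route and duration of AKBA, the length of nerve taken and whether animals were pooled are not stated in the labels. The sham and AKBA groups differed both in the crush and in the drug, so these cannot be told apart in this comparison. With 1 library a side no difference has a replicate check and no test was made. Every difference below is one between libraries.

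A crush cuts the axons of a nerve but leaves its connective tissue tubes in place. Beyond the crush the axons break down, Schwann cells shed their myelin and take on a repair state, and macrophages clear the debris. As axons grow back, Schwann cells wrap them again, which calls for new myelin proteins, cholesterol and long-chain lipids. The nerve is bounded by perineurial cells, crossed by small vessels and surrounded by the epineurium, a coat of fibroblasts, collagen and fat cells. AKBA is known as an inhibitor of 5-lipoxygenase, the first enzyme of leukotriene synthesis.

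The gene table held 22608 genes, with 74184217 counts in sham, 89505656 in the untreated crushed library and 90071899 in AKBA. The 5 ribosomal RNA rows took 11.5%, 4.20% and 7.68% of these counts and were left out before levels were set as CPM (the count of a gene scaled to the remaining counts of its library). Ratios are log2 of (CPM + 1) in AKBA over (CPM + 1) in sham, a scale that understates the ratio of low genes. The filter kept genes whose mean over the sham and AKBA libraries reached 1 CPM. Nerve identity was plain in each library, with a summed level of the myelin protein list of 24613 CPM in sham, 51586 in the untreated crushed library and 47585 in AKBA. Levels below are CPM in the order sham, untreated crushed and AKBA. They are not scaled to gene length and are not compared between genes.

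Of the 14522 genes kept, 775 (5.34%) had a level in AKBA 2-fold or more above sham and 344 (2.37%) one 2-fold or more below. With 129 skeletal muscle and 47 hair and epidermis genes set apart, 14346 genes remained. Among these, 649 (4.52%) were higher by this measure and 339 (2.36%) lower. The median log2 ratio of all kept genes was 0.11, and with muscle and hair set apart 46.2% of genes lay within 1.2-fold and 60.2% lay above 0, the share against which counts of list members above 0 are read. Over a mean of 100 CPM, 54 genes were higher and 66 lower by this measure. The balance between higher and lower depended on scaling. TMM factors gave 503 higher and 433 lower with muscle and hair set apart, DESeq2 size factors 495 and 438, and upper quartile scaling 520 and 425. These scalings moved the median of all genes by -0.10, -0.10 and -0.09. List medians are therefore given beside the median of all kept genes, 0.11. Counts of list members past 2-fold are likewise read against the 4.52% higher and 2.36% lower with muscle and hair set apart.

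**Figure D1:**
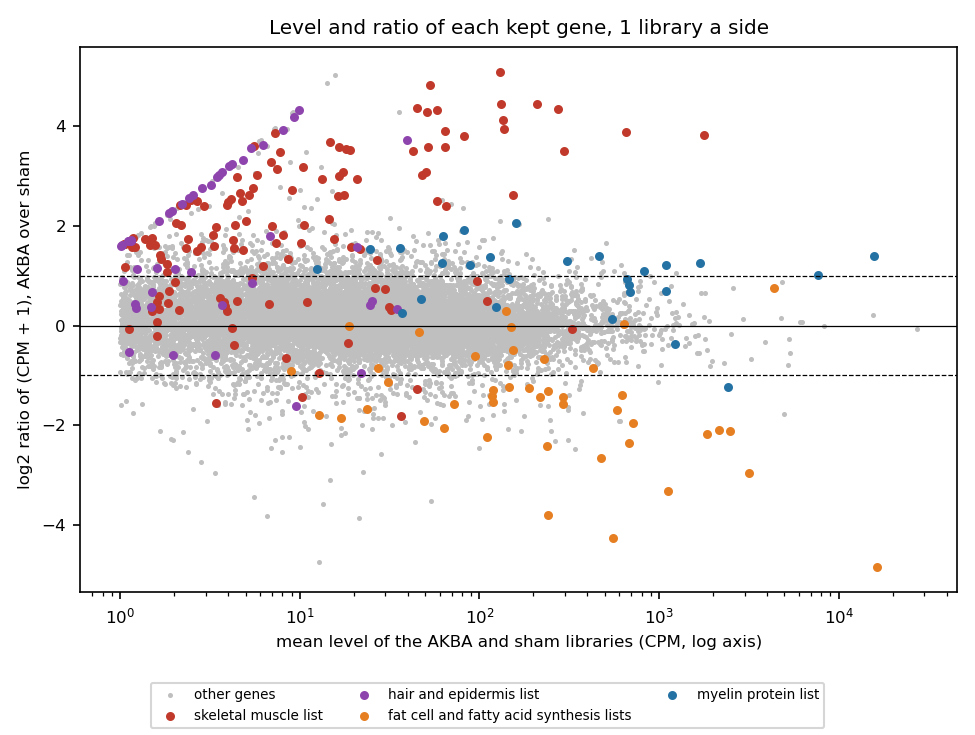
Each point is a kept gene, with the mean of its AKBA and sham levels (CPM, log axis) across and its log2 ratio of AKBA to sham upwards; dashed lines mark 2-fold and colours mark gene lists. Most muscle and hair genes lie above the upper dashed line, 25 of 27 myelin genes lie above 0, and the fat cell and fatty acid synthesis lists reach down to a log2 ratio of -4.85 for Scd.

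Skeletal muscle genes stood apart most. Their summed level was 1572 CPM in sham, 2306 in the untreated crushed library and 10430 in AKBA, or 0.157%, 0.231% and 1.04% of the counts. In whole tissue, fewer cells of a type and less RNA per cell cannot be told apart, and this holds for each cell type below. Of 129 kept members 94 were at least 2-fold higher in AKBA and 4 lower, with a median log2 ratio of 1.76. With the 5 members at 0 in sham set at their bound of 3 counts, the median was 1.98. These 5 passed the filter through AKBA alone, which fixed them past 2-fold, and are among the 94. The 5 largest ratios belonged to the fast myosin light chain Mylpf at 6.53, 14.2 and 254 CPM, the fast myosin heavy chains Myh2 at 2.71, 2.46 and 103 CPM and Myh1 at 17.6, 17.9 and 402 CPM, the light chain Myl1 at 10.8, 22 and 254 CPM, and the calcium buffer of fast fibres Pvalb at 3.23, 8.06 and 86.2 CPM. Skeletal alpha-actin Acta1 stood at 25.1, 50.6 and 525 CPM, and the alpha-actinins of the Z disc, Actn2 and Actn3, at 1.72, 2.41 and 31.4 CPM (Actn2) and 9.09, 17.2 and 119 CPM (Actn3). In each of these genes the AKBA library lay far above the other two. Some genes of forming muscle fibres, chosen after their values were seen, were also highest in AKBA. Embryonic myosin Myh3 stood at 0.0609, 0.478 and 14.5 CPM and neonatal myosin Myh8 at 0, 0.292 and 11.1 CPM. The muscle regulators Myod1 and Myog had 0 counts in both other libraries, and 63 and 141 counts in AKBA. Tnnt2 and Myl4, which developing muscle also makes, were not highest in AKBA. They stood at 3.53, 11.8 and 5.36 CPM (Tnnt2) and 4.26, 0.863 and 4.08 CPM (Myl4). The lower members included Tmem182 at 57.8, 30.8 and 15.7 CPM, the growth inhibitor Mstn at 5.59, 2.76 and 1.26 CPM and the mitochondrial carrier Ucp3 at 15.5, 8.61 and 5.11 CPM.

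Hair and epidermis genes formed a second, smaller group. They summed to 164, 174 and 474 CPM, with 32 of 47 kept members at least 2-fold higher and 1 lower (Krt79, 14.9, 3.17 and 4.17 CPM). The median log2 ratio was 1.69, or 3.31 with the 18 members at 0 in sham at their bound. These 18 passed the filter through AKBA alone, which fixed them past 2-fold, and they are among the 32. Both the count and the medians thus depend on the filter. Of 113 members present, 66 fell below it. The hair follicle genes Krtap7-1 at 0.0457, 0 and 19.7 CPM, Krt86 at 0.0761, 0.035 and 18.4 CPM, Krt71 at 0.122, 0.0816 and 15.9 CPM, Tchh at 4.77, 2.5 and 74.8 CPM and Krtap15-1 at 0.0914, 0 and 12.3 CPM had the largest ratios. Of these 5, Tchh had some counts in the other libraries and the rest were at or near 0 there. The first 3 members by name, the keratins Krt10, Krt17 and Krt19, stood at 3.0, 4.01 and 4.34 CPM (Krt10), 0, 0.292 and 2.06 CPM (Krt17) and 20.9, 46.8 and 29.7 CPM (Krt19). Reads of near-identical keratins and myosin heavy chains may have been split between copies, so single members are uncertain. The part that muscle and hair RNA plays in other genes was not tested. Without the muscle and hair genes in the total, 680 were higher and 333 lower, against 649 and 339.

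**Figure D2:**
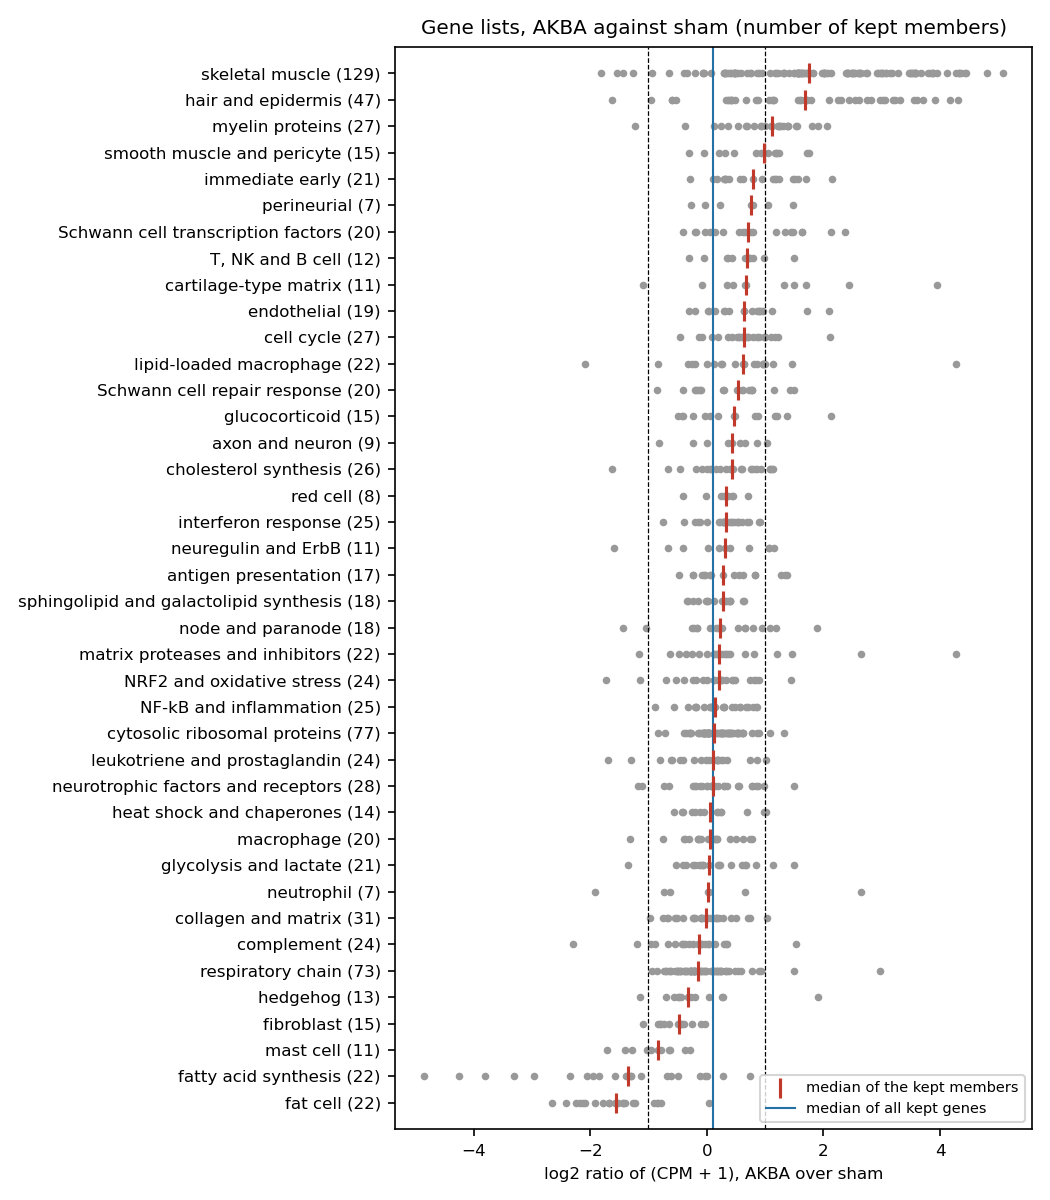
Each grey point is a kept member of a gene list at its log2 ratio of AKBA to sham; red bars mark list medians, the blue line the median of all kept genes, and dashed lines 2-fold. Medians run from 1.76 for skeletal muscle to -1.55 for fat cells, and most of the lists lie between -0.5 and 0.8.

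The lowest ratios concerned fat synthesis. Stearoyl-CoA desaturase Scd, which puts the first double bond into saturated fatty acids, took 31579, 3869 and 1097 CPM. That is a 28.8-fold lower level in AKBA than in sham (log2 ratio -4.85, counting interval -4.86 to -4.84), the lowest ratio among named genes at a mean of at least 5 CPM. Of the 22 kept genes of fatty acid and triglyceride synthesis 14 were at least 2-fold lower and 0 higher, against 2.36% lower among all genes outside muscle and hair. The list median was -1.35, and the summed level was 49279, 15649 and 9610 CPM.

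Many enzymes of the pathway had the order of Scd. ATP-citrate lyase Acly, which supplies acetyl-CoA, stood at 1143, 436 and 296 CPM. Acetyl-CoA carboxylase Acaca, the committed step, stood at 1145, 389.6 and 223 CPM, and fatty acid synthase Fasn at 5637, 1669 and 722 CPM. Malic enzyme Me1, a source of NADPH, stood at 1051, 131 and 54.4 CPM, and the elongase Elovl6 at 103, 44.5 and 24.3 CPM. All 5 were highest in sham, in between in the untreated crushed library and lowest in AKBA. The lipogenic nuclear protein Thrsp at 2051, 476 and 206 CPM and the lipid droplet protein Pnpla3 at 451, 62.4 and 31.3 CPM had the same order. The transcription factor Mlxipl (ChREBP), which drives lipogenic genes by glucose, was at 27.1, 12.2 and 6.76 CPM, while Srebf1, their insulin-driven activator, was level at 151, 112 and 148 CPM. Other members had other orders. The acyltransferase Gpam was lowest in the untreated crushed library, at 345, 128 and 139 CPM, while the desaturases Fads1 and Fads2 were highest there, at 179.9, 219 and 127 CPM (Fads1) and 48.3, 72.1 and 44.3 CPM (Fads2). Acacb, the carboxylase of mitochondria, stood at 18.7, 19.6 and 18.7 CPM, and Scd2, the desaturase known from the mouse nervous system, was higher in both crushed libraries, at 3272, 6659 and 5488 CPM. Srebf1, Mlxipl, Elovl6, Scd2, Gpam, Fads1 and Fads2 were singled out after their values were seen. Reads shared by Scd and Scd2 could be assigned to either.

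Fat cell genes were lower as a group. Of 22 kept members 17 were at least 2-fold lower and 0 higher, the median was -1.55, and the sum was 16060, 8934 and 4693 CPM. Only the complement serine protease Cfd lay above 0, at 626, 1076 and 644 CPM. The hormones adiponectin (Adipoq) and leptin (Lep) stood at 3039, 1296 and 674 CPM (Adipoq) and 401, 179.9 and 74.3 CPM (Lep). The retinol carrier Rbp4 was at 818, 288 and 129 CPM, the fatty acid carrier Fabp4 at 4021, 1813 and 925 CPM, the glycerol channel Aqp7 at 183, 86.2 and 38 CPM, and lipoprotein lipase Lpl, which frees fatty acids from circulating lipoproteins, at 3481, 1957 and 821 CPM. The lipid droplet coat gene Plin1 stood at 317, 192 and 116 CPM. Each of these 7 genes was highest in sham and lowest in AKBA. The fatty acid synthesis and fat cell lists were thus lower together, and fat cells also express the synthesis enzymes. The part that the amount of fat in each piece of nerve plays in the synthesis genes was not tested.

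Cholesterol synthesis, the other lipid pathway that myelin draws on, had 26 kept members. Of these 21 lay above 0, but only 4 were at least 2-fold higher and 1 lower, with a median of 0.43. Mvd, which makes isopentenyl diphosphate from mevalonate diphosphate, stood at 5.22, 21.6 and 12.7 CPM. The sterol reductase Tm7sf2 stood at 6.46, 28.5 and 15.2 CPM and mevalonate kinase Mvk at 8.45, 25.4 and 19.1 CPM. In these 3 genes AKBA lay between sham and the untreated crushed library. Mvk was just under 2-fold with TMM (log2 ratio 0.99) or DESeq2 (0.99) scaling, and Mvd, Tm7sf2 and Mvk were under it at a pseudocount of 5 CPM. The synthase Hmgcs1, which makes the precursor of mevalonate, stood at 545, 1568 and 744 CPM, and Acat2 at 13.6, 28.8 and 17.4 CPM. The one member lower in AKBA was Insig1, which holds the SREBP activators in the endoplasmic reticulum, at 363, 211 and 118 CPM.

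Both pathways are textbook targets of the SREBP factors, which act with NF-Y and Sp1. The 250 bases before the start of the members with the largest ratio and a RefSeq entry (rat assembly GRCr8) are shown, to set lipid genes of opposite direction side by side, with CCAAT, the motif of NF-Y, or its reverse ATTGG in capitals.
Scd, chr1:253231732-253231981, minus strand: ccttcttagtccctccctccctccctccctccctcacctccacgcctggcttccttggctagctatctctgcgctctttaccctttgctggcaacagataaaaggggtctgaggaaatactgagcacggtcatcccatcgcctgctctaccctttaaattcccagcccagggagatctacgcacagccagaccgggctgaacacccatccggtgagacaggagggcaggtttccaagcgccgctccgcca
Me1, chr8:96540245-96540494, minus strand: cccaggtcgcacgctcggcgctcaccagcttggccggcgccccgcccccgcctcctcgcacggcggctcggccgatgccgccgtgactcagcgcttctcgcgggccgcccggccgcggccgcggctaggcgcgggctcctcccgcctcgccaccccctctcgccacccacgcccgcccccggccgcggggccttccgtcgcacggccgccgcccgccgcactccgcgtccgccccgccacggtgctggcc
Mvd, chr19:67414975-67415224, minus strand: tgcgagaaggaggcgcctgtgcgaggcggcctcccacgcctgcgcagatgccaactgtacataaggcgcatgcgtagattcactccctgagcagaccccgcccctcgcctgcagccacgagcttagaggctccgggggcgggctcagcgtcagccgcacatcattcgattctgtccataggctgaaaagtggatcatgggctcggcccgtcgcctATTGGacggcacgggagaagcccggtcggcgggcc
Tm7sf2, chr1:212789542-212789791, minus strand: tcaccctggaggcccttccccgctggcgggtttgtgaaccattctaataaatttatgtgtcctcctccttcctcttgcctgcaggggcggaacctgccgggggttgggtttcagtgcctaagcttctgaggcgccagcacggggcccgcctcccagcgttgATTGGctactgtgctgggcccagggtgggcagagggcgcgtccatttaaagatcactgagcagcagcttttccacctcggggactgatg
The motif stood once in the window of Mvd, starting at -35, and once in that of Tm7sf2, at -89, counted from the start site on the gene's strand. In the windows of Scd and Me1 these letters were not found. Over the lists it was in 15 of the 19 cholesterol genes with an entry, 13 of 18 fatty acid synthesis genes, 4 of 14 fat cell genes and 9 of 22 myelin genes, against 34% of all 33469 windows. The Sp1 letters GGGCGG stood in 16, 10, 10 and 11 of these, against 30.5% of all windows. A gene of a list counted where any of its windows held the letters, while the shares of all are of single windows. The units thus differ, and the list counts are not an excess over these shares. In both synthesis lists, whose levels differed in direction, most genes with an entry held the CCAAT letters in a window. The sterol element TCACNCCAC was in 0 windows of the 4 lists and 0.974% of all. The other 9 motifs searched, like these on both strands, were the E-box CACGTG, the TATA box TATAAA, the AP-1 letters TGACTCA, the SOX letters ACAAAG and the related AACAATG, the nuclear receptor letters TGACCT, the TEAD letters CATTCCA, the direct repeat of PPAR, which holds the nuclear receptor letters, and the CArG box. The last 2 were in 0 windows of the 4 lists. A match is a description of letters and not a binding site.

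For the third myelin lipid class, 18 genes of sphingolipid and galactolipid metabolism were kept, of which 0 were 2-fold higher or lower (median 0.27). The galactolipid synthesis genes Ugt8, Fa2h and Gal3st1 were not in this list but in that of the myelin proteins. They stood at 498, 896 and 871 CPM (Ugt8), 52.7, 152 and 124 CPM (Fa2h) and 7.51, 16.1 and 17.5 CPM (Gal3st1). Fa2h and Gal3st1 were past 2-fold (log2 ratio 1.22 and 1.12), and Ugt8 was not (0.80). Sptlc1 and Sptlc2, subunits of the first enzyme, stood at 43.5, 58 and 53.2 CPM (Sptlc1) and 139, 229.7 and 173 CPM (Sptlc2), and Kdsr, the next step, at 23.6, 32.2 and 31.4 CPM.

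Myelin protein genes were higher in AKBA than in sham. Of 27 kept members 25 lay above 0, 16 were at least 2-fold higher and 1 was lower, with a median of 1.12, where 4.52% of all genes outside muscle and hair were higher. The compact myelin gene Pmp22 stood at 5087, 11702 and 10200.0 CPM, and was under 2-fold with TMM, DESeq2 or upper quartile scaling (log2 ratio 0.89 to 0.91). The largest ratios belonged to genes outside compact myelin. The adhesion gene Cadm4, which holds the Schwann cell to the axon, stood at 61.6, 228 and 260.0 CPM. Dhh, the Schwann cell hedgehog ligand, stood at 34.1, 107 and 131 CPM. The gene Mag, of the membrane facing the axon, was at 27.5, 74.7 and 98 CPM. The gap junction gene Gjb1 of uncompacted myelin was at 18, 46.6 and 54.7 CPM. Cnp, of uncompacted myelin, was at 258, 391 and 675 CPM. In these 5 genes both crushed libraries lay above sham. The order was another in Gjc3, a glial connexin, at 12.2, 8.7 and 36.8 CPM, where the untreated crushed library was lowest.

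Mbp, whose protein binds the inner faces of the compact myelin membrane, went the other way at 3402, 1621 and 1446 CPM (log2 ratio -1.23, counting interval -1.25 to -1.22). Its transcripts, looked at after this value was seen, differed in direction. Transcript NM_017026.2 held 74.1% of the Mbp counts in sham, at 2521 CPM, but 413 CPM in the untreated crushed library and 456 CPM in AKBA, 31.5% of the Mbp counts there. NM_001025294.1 stood instead at 50.3, 528 and 398 CPM and went from 1.48% of Mbp counts in sham to 27.6% in AKBA. The rarer NM_001025291.1 was at 196, 2.40 and 6.42 CPM. Which transcript a read was given to is an estimate by the authors' counting.

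**Figure D3:**
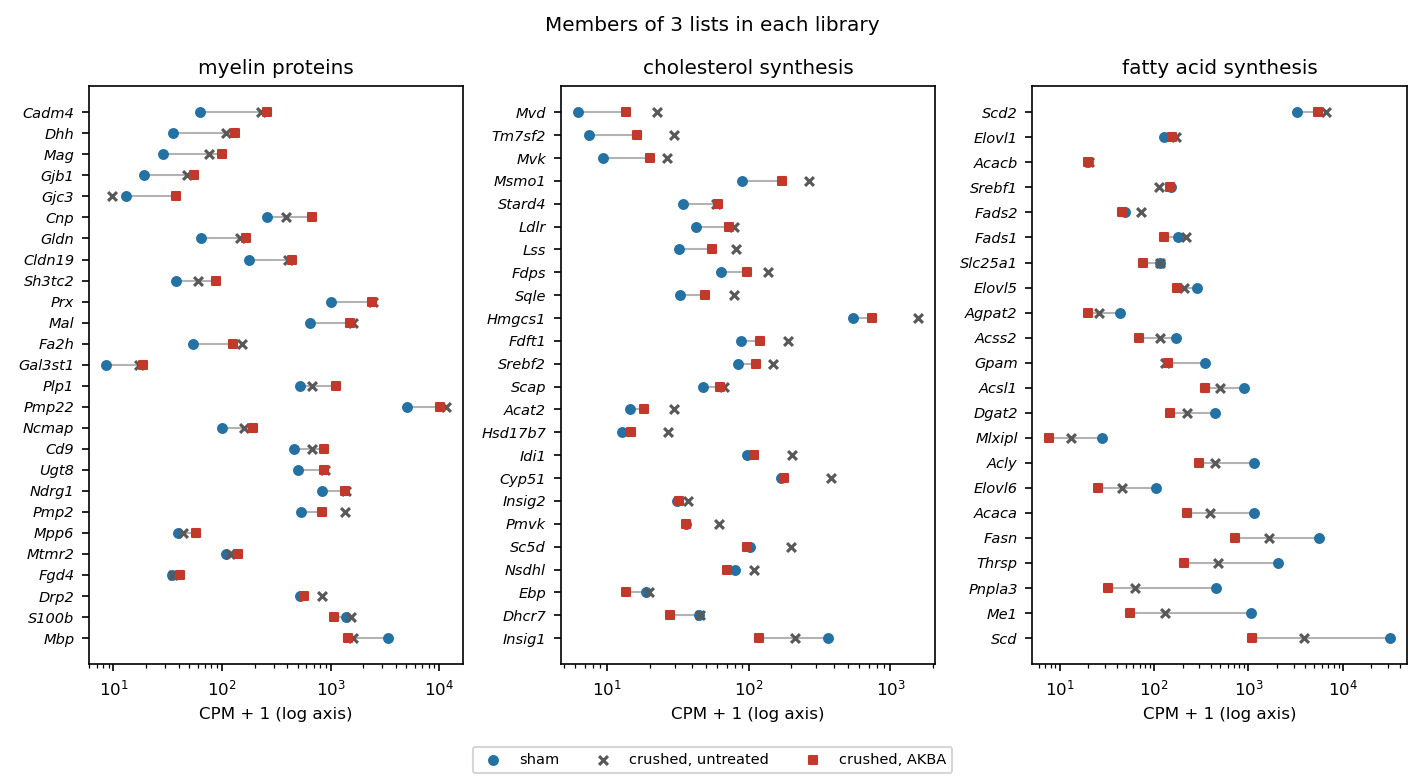
Levels of kept members of 3 lists in the sham (circle), untreated crushed (cross) and AKBA (square) libraries, as CPM + 1 on a log axis, sorted by ratio. Most myelin genes lie to the right of sham in both crushed libraries, most cholesterol genes lie highest in the untreated crushed library, and most fatty acid synthesis genes are highest in sham and lowest in AKBA.

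Of 20 kept transcription factors that set the state of the Schwann cell 16 lay above 0, 8 were at least 2-fold higher and 0 lower (median 0.70). Among all genes outside muscle and hair 60.2% lay above 0 and 4.52% were at least 2-fold higher. Factors of the myelinating state were among them. Sox10, which keeps Schwann cell identity, stood at 36.7, 80.7 and 116 CPM, Egr2 (Krox20), the main activator of myelin genes, at 22.3, 43.7 and 52.3 CPM, and Pou3f1 (Oct6), which precedes it, at 2.74, 3.27 and 18.4 CPM. The transcripts placed on Sox10 held 0 counts in sham and AKBA, so their sum gave no ratio. Pou3f1 in the untreated crushed library was close to sham. Factors of the immature or injured state were also higher. Sox2, which holds back myelination, stood at 7.14, 9.53 and 24.1 CPM, the injury gene Atf3 at 18.6, 22.1 and 53.5 CPM and the inhibitor Id4 at 16.6, 32.8 and 46.9 CPM. The glucocorticoid receptor Nr3c1 was at 89.7, 495 and 394 CPM.

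Of 20 kept members of the Schwann cell repair list 13 lay above 0, a share near the 60.2% of all genes. In this list 3 members passed 2-fold upwards and 0 downwards (median 0.53). The low-affinity neurotrophin receptor Ngfr stood at 28, 18 and 80.8 CPM, with the untreated crushed library below sham and AKBA above it. The intermediate filament gene Gfap was at 17.1, 28.6 and 47.4 CPM and the neuregulin receptor gene Erbb3 at 131, 178 and 291 CPM. Gap43, the growth cone gene that repair cells also use, was level at 19.2, 24.9 and 18 CPM, and Shh, the hedgehog ligand of injured nerve, was at 9.5, 31 and 11.7 CPM. Shh was highest in the untreated crushed library.

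At the node of Ranvier, where sodium channels cluster, 3 of 18 kept members were at least 2-fold higher and 2 lower (median 0.23). Neurofascin (Nfasc), which anchors node and paranode, stood at 32.8, 197 and 124 CPM. Its paranodal partners on the axon, Cntn1 and Cntnap1, stood at 9.32, 15 and 14 CPM (Cntn1) and 7.75, 9.88 and 9.04 CPM (Cntnap1). Ezrin (Ezr), of Schwann cell microvilli, was at 52, 76.4 and 119 CPM. The juxtaparanodal potassium channel Kcna1 was at 26.6, 55.3 and 57.8 CPM, and was just under 2-fold with TMM, DESeq2 or upper quartile scaling. The nodal sodium channel Scn8a was lower, at 6.72, 3.3 and 1.84 CPM, and so was Adam22, at 6.49, 5.03 and 2.63 CPM. Kcna1, Scn8a and Adam22 were under 2-fold at a pseudocount of 5 CPM, and Adam22 also with ribosomal RNA kept in the total. Of 9 kept members of the axon and neuron list 7 lay above 0 and 1 was 2-fold higher (median 0.43). The summed level of the list was nevertheless lowest in AKBA, at 1461, 1861 and 1067 CPM, with Sncg at 970, 1119 and 549 CPM. Members below the filter went both ways. Nefh, at 1.29, 2.27 and 0.325 CPM, and Snap25, at 1.32, 1.82 and 0.637 CPM, were lower in AKBA than in sham. Calca and Syt1 were higher, at 0.259, 0.408 and 0.409 CPM (Calca) and 0.563, 1.73 and 0.794 CPM (Syt1). The neurofilament genes Nefl and Nefm stood at 9.65, 11.3 and 18.4 CPM (Nefl) and 6.94, 7.64 and 15.3 CPM (Nefm), and Stmn2, a marker of growing axons, at 5.36, 8.14 and 4.4 CPM. Nefm was under 2-fold with TMM, DESeq2 or upper quartile scaling and at a pseudocount of 5 CPM.

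Among signals between axon and Schwann cell, of 11 kept neuregulin and ErbB genes 3 were 2-fold or more above sham and 1 below (median 0.30). The receptor pair Erbb2 and Erbb3 stood at 15.6, 28.5 and 33.9 CPM (Erbb2) and 131, 178 and 291 CPM (Erbb3), the ligand Hbegf at 16, 58.7 and 34.7 CPM, and the axonal ligand Nrg1 at 2.88, 1.54 and 1.92 CPM. Its relative Nrg2 was at 0.914, 1.2 and 1.2 CPM. Erbb2 and Hbegf were under 2-fold with TMM, DESeq2 or upper quartile scaling. The lower member was Nrg4, a ligand made by fat cells, at 5.79, 3.86 and 1.24 CPM. Erbb2, Hbegf and Nrg4 were under 2-fold at a pseudocount of 5 CPM. Of 28 neurotrophic factors and receptors 1 was higher (Ngfr) and 2 lower (median 0.10). The lower ones included Igf1, at 505, 369 and 233 CPM. The ligands Bdnf and Ntf3 stood at 1.26, 0 and 1.79 CPM (Bdnf) and 3.26, 5.14 and 3.6 CPM (Ntf3). Of 13 hedgehog genes 1 was higher (Dhh) and 1 lower (median -0.33). The lower gene was Hhip, a target that binds hedgehog ligands, at 14, 13.3 and 5.82 CPM, and it was under 2-fold at a pseudocount of 5 CPM. The neurotrophic and hedgehog lists thus had 1 or 2 members past 2-fold each way, where 4.52% of all genes were higher and 2.36% lower. The receptor Ptch1, a target gene of the pathway, stood at 168, 212 and 139 CPM. Dhh was thus higher while 9 of the 13 members lay below 0.

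Of 20 general macrophage markers 0 were 2-fold higher and 1 lower, with a median of 0.05 that was below 0 (-0.06 to -0.04) with TMM, DESeq2 or upper quartile scaling. The growth factor receptor Csf1r stood at 295, 290.0 and 225 CPM, Adgre1 at 62.5, 77.3 and 65.8 CPM and C1qa at 206, 204 and 191 CPM. The lower member was Lyve1, known from resident macrophages and lymph vessels, at 88.8, 78.4 and 34.9 CPM. In the list of macrophages loaded with lipid, as they become when they take up myelin, 17 of 22 members lay above 0, 4 were at least 2-fold higher and 1 lower (median 0.62). Macrophage elastase Mmp12 stood at 2.57, 0 and 68.4 CPM. Its 19.4-fold ratio (log2 4.28, counting interval of the CPM ratio 4.51 to 4.96) was the highest of the named genes outside muscle and hair that reached a mean of 5 CPM, leaving aside genes at 0 in sham. The integrin Itgax stood at 7.49, 4.58 and 22.5 CPM, and lysosomal acid lipase Lipa, which frees cholesterol from its esters, at 43.1, 23.5 and 95.7 CPM. The membrane glycoprotein Gpnmb stood at 596, 49.1 and 1194 CPM. In these 4 genes AKBA was highest and the untreated crushed library lowest, below sham. The lipid sensor Trem2 and osteopontin (Spp1) stood at 20.4, 14.9 and 40.6 CPM (Trem2) and 569.7, 966 and 676 CPM (Spp1). Gpnmb was under 2-fold with TMM, DESeq2 or upper quartile scaling (log2 ratio 0.89 to 0.91) and at a pseudocount of 5 CPM. The lower member, Lpl, is also a fat cell gene.

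All 11 kept mast cell genes lay below 0, 4 were at least 2-fold lower and the median was -0.84, while their sum was 466, 586 and 194 CPM. Carboxypeptidase Cpa3 stood at 92.5, 123 and 34.5 CPM, the chymases Cma1 and Mcpt1l1 at 40.8, 67.6 and 19.6 CPM (Cma1) and 209.8, 254 and 63.5 CPM (Mcpt1l1), the tryptase Tpsab1 at 7.11, 7.78 and 4.2 CPM and the IgE receptor chain Ms4a2 at 17.9, 15.5 and 6.78 CPM. In these 5 genes AKBA was lowest. Cma1 and Ms4a2 were under 2-fold at a pseudocount of 5 CPM, and Cma1 also with ribosomal RNA kept in the total. Mcpt genes are near-identical copies, so the value of Mcpt1l1 is uncertain.

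**Figure D4:**
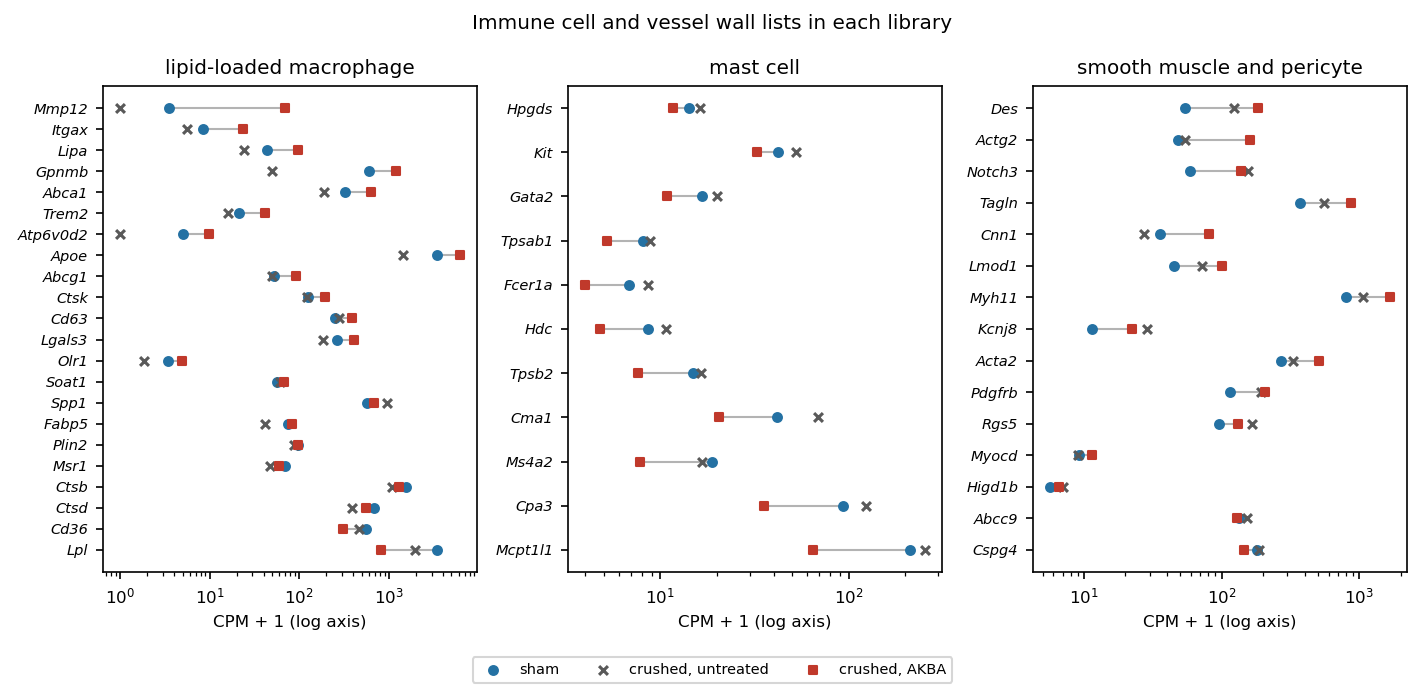
Levels of the kept members of the lipid-loaded macrophage, mast cell and smooth muscle lists in the sham (circle), untreated crushed (cross) and AKBA (square) libraries, as CPM + 1 on a log axis, sorted by ratio. AKBA lies to the left of sham for all 11 mast cell genes and to the right for 13 of 15 smooth muscle and pericyte genes.

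Of 12 kept lymphocyte and natural killer cell genes 10 lay above 0, where 60.2% of all genes did, with 1 at least 2-fold higher and 0 lower (median 0.68). That member was the cytotoxic T cell gene Cd8a, at 2.53, 1.94 and 8.91 CPM, while Cd3e and Cd3g, of the T cell receptor complex, stood at 1.04, 1.96 and 1.62 CPM (Cd3e) and 0.853, 1.22 and 2.03 CPM (Cd3g). Cd8a was under 2-fold at a pseudocount of 5 CPM. Cd4, which macrophages of the rat also carry, was at 165, 120.4 and 133 CPM. Neutrophil genes had 7 kept members, 1 higher and 1 lower. Gelatinase B (Mmp9) was higher, at 0.289, 0.548 and 7.08 CPM. Mpo, the peroxidase of neutrophil granules, was lower, at 61.5, 44.3 and 15.4 CPM. Elane, Ltf and Camp of the same list did not share its level. They had 0 counts in sham and 5, 8 and 13 counts in AKBA, below the filter. The median of 0.02 was below 0 with TMM, DESeq2 and upper quartile scaling and at a filter of 5 CPM. S100a9 stood at 4.69, 1.88 and 2.69 CPM. Of 17 antigen presentation genes 3 were higher and 0 lower (median 0.29). They were the class II chain RT1-Bb at 20.1, 28.2 and 53.7 CPM, the peptide transporter Tap1 at 15.6, 23.5 and 40.8 CPM and the class I gene RT1-A1 at 7.77, 7.71 and 20.1 CPM. RT1-A2 and RT1-Da stood at 48.4, 59.6 and 40.9 CPM (RT1-A2) and 254, 276 and 247 CPM (RT1-Da), and RT1 genes share reads. RT1-A1 was under 2-fold at a pseudocount of 5 CPM.

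Few members of the inflammatory lists passed 2-fold, as among all genes outside muscle and hair, where 4.52% were higher and 2.36% lower. Of 25 interferon response genes 20 lay above 0 but 0 were 2-fold higher or lower (median 0.32), with Ifit1, Ifit2 and Ifit3 at 11.6, 14.2 and 22.8 CPM (Ifit1), 51.3, 57.8 and 47.4 CPM (Ifit2) and 5.54, 7.07 and 9.52 CPM (Ifit3). Of 25 genes of NF-kB and inflammation 0 were 2-fold higher or lower (median 0.14). The subunits Nfkb1, Nfkb2 and Rela stood at 73.2, 80.5 and 89.7 CPM (Nfkb1), 27.7, 34.4 and 44.5 CPM (Nfkb2) and 53.5, 58.2 and 57.9 CPM (Rela). In the leukotriene and prostaglandin list, which holds the known target of AKBA, 1 of 24 kept members was higher and 2 lower (median 0.11). The target itself, 5-lipoxygenase (Alox5), stood at 25.3, 26 and 18.8 CPM (log2 ratio -0.41). Its activating protein Alox5ap was at 18.2, 24.4 and 15.5 CPM and leukotriene C4 synthase Ltc4s at 7.83, 17.5 and 9.12 CPM. These levels of transcripts say nothing of enzyme activity. The prostacyclin receptor Ptgir was at 1.45, 3.32 and 3.96 CPM, and was under 2-fold with TMM, DESeq2 or upper quartile scaling and at a pseudocount of 5 CPM. The receptors Ptger3 and Ptgfr were lower, at 33.1, 20.7 and 9.58 CPM (Ptger3) and 23.2, 8.42 and 8.77 CPM (Ptgfr). Of 24 complement genes 1 was higher and 2 lower (median -0.14). The central component C3 stood at 18, 14.4 and 53.7 CPM, Masp1 of the lectin pathway at 48.2, 27 and 20.6 CPM, and C6 of the membrane attack complex at 520.4, 164 and 105 CPM. The transcripts placed on C6 held 0 counts, so their sum gave no ratio. The proteases C1r and C1s and the component C2 stood at 706, 609.5 and 652 CPM (C1r), 768, 598 and 776 CPM (C1s) and 219, 258 and 279 CPM (C2).

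In the vessel wall, of 15 smooth muscle and pericyte genes 13 lay above 0, 7 were at least 2-fold higher and 0 lower (median 0.98). Desmin (Des), also a skeletal muscle gene, stood at 53.6, 121 and 183 CPM, and the smooth muscle actin Actg2 at 47.4, 53.5 and 158 CPM. The contractile genes Tagln and Cnn1 stood at 373, 549 and 863 CPM (Tagln) and 34.5, 26.2 and 79.8 CPM (Cnn1), and Lmod1 at 43.8, 71.6 and 99.9 CPM. The sum of the transcripts placed on Lmod1 gave a log2 ratio of -0.62, but held 1.22% of its counts in sham and 0% in AKBA. The pericyte receptors Notch3 and Pdgfrb were at 57.8, 154 and 138 CPM (Notch3) and 114, 194 and 207 CPM (Pdgfrb), and the pericyte genes Rgs5 and Cspg4 at 94.6, 166 and 132 CPM (Rgs5) and 178, 186 and 144 CPM (Cspg4). Skeletal muscle RNA was higher in the same library (10430 against 1572 CPM), and its part in these values was not tested. Of 19 endothelial genes 17 lay above 0, 3 were at least 2-fold higher and 0 lower (median 0.64). The fenestral diaphragm gene Plvap stood at 48.7, 184 and 212 CPM, Cldn5 of endothelial tight junctions at 26.9, 78.9 and 90.7 CPM, and the lipid transporter of brain endothelium Mfsd2a at 3.65, 9.84 and 9.1 CPM. The general endothelial genes Pecam1, Cdh5 and Kdr stood at 94.4, 167 and 148 CPM (Pecam1), 73.9, 129.8 and 96.9 CPM (Cdh5) and 64.5, 99.6 and 78.9 CPM (Kdr). Mfsd2a was under 2-fold at a pseudocount of 5 CPM. In each of these 6 genes both crushed libraries lay above sham. Of 8 kept red cell genes 0 were 2-fold higher or lower (median 0.32), with Hbb at 292, 497 and 397 CPM, Hba-a1 at 14.7, 28.2 and 20.3 CPM and Hbb-b1 at 81.7, 135 and 105 CPM.

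Of 7 perineurial genes 2 were 2-fold or more above sham and 0 below (median 0.76). The laminin chain Lama5 stood at 43, 144 and 122 CPM, Msln at 5.92, 16.1 and 13.4 CPM, the glucose transporter Slc2a1 at 93.2, 173 and 158 CPM, the barrier claudin Cldn1 at 211, 337 and 246 CPM and the integrin Itgb4 at 573, 1247 and 998 CPM. Msln was under 2-fold with TMM, DESeq2 or upper quartile scaling and at a pseudocount of 5 CPM. Fibroblast genes lay the other way, with all 15 kept members below 0 and 1 at least 2-fold lower (median -0.47). Sox9 was that member, at 25.5, 15.9 and 11.5 CPM, and was under 2-fold at a pseudocount of 5 CPM. Pdgfra, the receptor that marks these cells, stood at 477, 438 and 339.7 CPM, dermatopontin (Dpt) at 814, 675 and 491 CPM and Pi16 at 94.3, 106 and 53.5 CPM.

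Of 31 collagen and matrix genes 1 was at least 2-fold higher and 0 lower, with a median of -0.02 that was 0.04 with ribosomal RNA kept in the total. The fibrillar collagens Col1a1, Col1a2 and Col3a1 stood at 14309, 10862 and 16625 CPM (Col1a1), 5965, 4540.4 and 6239 CPM (Col1a2) and 28010.0, 21156 and 26802 CPM (Col3a1). The higher member was tenascin C (Tnc), a matrix glycoprotein of wounds, at 89.4, 144 and 185 CPM, and it was under 2-fold with TMM, DESeq2 or upper quartile scaling. Of 11 kept cartilage-type matrix genes 5 were higher and 1 lower (median 0.67). Cartilage collagen Col2a1 stood at 21.1, 75.6 and 119 CPM, Col9a3 at 20.4, 62.5 and 68.5 CPM, Col11a2 at 3.65, 10.6 and 10.6 CPM and chondromodulin Lect1 at 70.2, 275 and 199 CPM. Col11a2 was under 2-fold at a pseudocount of 5 CPM. The sum of the transcripts placed on it gave a log2 ratio of -1.95, but held 1.93% of its counts in AKBA. The transmembrane collagen Col23a1 was at 0, 35 and 14.5 CPM, at least 316.9-fold higher in AKBA than the 3 counts that a count of 0 allows in sham. Col9a1 and Col9a2 were highest in the untreated crushed library, at 27.1, 257 and 43.4 CPM (Col9a1) and 7.86, 46.4 and 13 CPM (Col9a2). The lower member was Sox9, the activator of cartilage genes. Of 22 matrix proteases and inhibitors 4 were higher and 1 lower (median 0.21). Beside Mmp12 and Mmp9 the higher ones were the membrane-bound Mmp15 at 69.7, 186 and 193 CPM and Mmp17 at 7.29, 7.86 and 18.1 CPM (under 2-fold at a pseudocount of 5 CPM), while the aggrecanase Adamts5 was lower at 179.9, 112 and 80.3 CPM. Mmp2 and Mmp3 stood at 733, 638 and 669 CPM (Mmp2) and 2.24, 1.14 and 1.52 CPM (Mmp3).

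Of 27 kept cell cycle genes 24 lay above 0, where 60.2% of all genes did, 6 were at least 2-fold higher and 0 lower (median 0.64). The ribonucleotide reductase subunit Rrm2 stood at 3.05, 10.3 and 16.5 CPM, the spindle genes Tpx2 and Bub1b at 5.6, 12.9 and 14.3 CPM (Tpx2) and 2.04, 5.11 and 5.82 CPM (Bub1b), Cdc20 at 3.61, 8.49 and 8.85 CPM, and the proliferation marker Mki67 at 44.1, 68.9 and 68.6 CPM. Top2a and Ccnb1 stood at 17.8, 39.4 and 33.1 CPM (Top2a) and 3.44, 4.72 and 5.94 CPM (Ccnb1). Cdk1, at 2.66, 7.28 and 6.35 CPM, and Mcm5, at 3.72, 6.64 and 8.44 CPM, lay at 2-fold and were under it with TMM, DESeq2 or upper quartile scaling. At a pseudocount of 5 CPM Tpx2, Bub1b, Cdc20, Cdk1 and Mcm5 were under 2-fold, and Rrm2 was not (log2 ratio 1.42).

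Immediate early genes, which cells induce within minutes of a stimulus, were higher in 9 of 21 kept members and lower in 0 (median 0.79). Fos stood at 11, 19.5 and 52.5 CPM, Fosb at 1.71, 1.47 and 7.85 CPM, Fosl1 at 1.13, 3.28 and 5.27 CPM, Junb at 22.1, 41.6 and 64.8 CPM and Arc at 1.0, 10.6 and 3.72 CPM. Fos, Fosb and Junb were highest in AKBA, while Arc was highest in the untreated crushed library. Fosb, Fosl1 and Arc were under 2-fold at a pseudocount of 5 CPM. The time from death to tissue freezing is not stated in the labels, and its part was not tested. In the glucocorticoid list 4 of 15 were higher and 0 lower (median 0.46). Beside Nr3c1 these were Errfi1 at 52.3, 107 and 138 CPM, the phosphatase Dusp1 at 40.2, 64.5 and 94 CPM and the clock gene Per1 at 20.2, 29.9 and 46.8 CPM. The classic target Fkbp5, singled out after its value was seen, was at 32, 31.9 and 27 CPM, and the mineralocorticoid receptor Nr3c2 and the glucocorticoid-activating enzyme Hsd11b1 at 31.8, 36.9 and 31.2 CPM (Nr3c2) and 24.9, 20.7 and 18.6 CPM (Hsd11b1).

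Stress and energy lists had few members past 2-fold, as did all genes outside muscle and hair (4.52% higher and 2.36% lower). Of 24 NRF2 and oxidative stress genes 1 was higher and 2 lower (median 0.21). The cystine carrier Slc7a11 stood at 12.8, 10.2 and 36.6 CPM, catalase (Cat) at 411, 287 and 185 CPM and Gpx2 at 16, 10.6 and 4.15 CPM. The factor itself, Nfe2l2, its inhibitor Keap1 and its target Nqo1 stood at 80.8, 50.5 and 55.5 CPM (Nfe2l2), 28, 36.5 and 39.4 CPM (Keap1) and 17, 33.3 and 29 CPM (Nqo1). Of 14 heat shock genes 1 was higher and 0 lower, namely Hspa1a at 10.9, 22.2 and 23.1 CPM, which was under 2-fold with TMM, DESeq2 or upper quartile scaling and at a pseudocount of 5 CPM. The chaperones Hspa8 and Hsp90aa1 stood at 749, 958 and 721 CPM (Hspa8) and 256, 209 and 191 CPM (Hsp90aa1), and the list median of 0.06 was below 0 with TMM, DESeq2 or upper quartile scaling. Of 21 glycolysis and lactate genes 2 were higher and 1 lower, with a median of 0.04 that was below 0 with the same scalings. The higher ones were the lactate exporter Slc16a3 at 2.38, 3.6 and 8.49 CPM and Pfkm, the phosphofructokinase of muscle, at 72, 119.8 and 159 CPM. Slc16a3 was under 2-fold at a pseudocount of 5 CPM, and the transcripts placed on it held 0 counts. The hexokinases Hk1 and Hk2 and the isomerase Gpi stood at 66.3, 106 and 88.5 CPM (Hk1), 73, 42.2 and 50.3 CPM (Hk2) and 187, 169.5 and 169.9 CPM (Gpi). The lower one was Slc2a4, the insulin-driven glucose carrier of fat and muscle, at 102, 58.5 and 39.6 CPM. Of 73 respiratory chain genes 2 were higher and 0 lower (median -0.15). The higher ones were Cox6a2, a muscle form, at 0.228, 1.05 and 8.67 CPM, and Sdhc at 37.7, 94.6 and 109 CPM, while Ndufa1, Ndufa10 and Ndufa11 of complex I stood at 27.7, 30.9 and 36.4 CPM (Ndufa1), 106, 82.3 and 72.3 CPM (Ndufa10) and 112, 91 and 72 CPM (Ndufa11). Of 77 cytosolic ribosomal protein genes 2 were higher and 0 lower (median 0.13). These were Rps28 at 75.4, 111 and 191 CPM and Rps14 at 312, 308 and 663 CPM, and Rpl10, Rpl10a and Rpl11 stood at 449, 476 and 529 CPM (Rpl10), 195, 204 and 208 CPM (Rpl10a) and 444, 379 and 363 CPM (Rpl11).

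Across all genes outside muscle and hair, the 15 highest log2 ratios among named genes at a mean level of 5 CPM or more ran from 2.38 to 4.28. After Mmp12, Col23a1, Col2a1 and Pou3f1, described above, they included the chemokine Ccl9 at 0.944, 0.362 and 20.8 CPM and the protease inhibitor Cst6 at 0.838, 1.41 and 16.9 CPM. In both genes AKBA was far above both other libraries. Epiphycan (Epyc), a cartilage proteoglycan, was at 0.670, 1.34 and 14 CPM, and the vesicle motor Myo5b at 0.426, 1.25 and 10.8 CPM. The G protein regulator Rgs16 at 3.32, 25.5 and 27 CPM and the repressor Zfp238 at 2.94, 26.2 and 21.9 CPM were about as high in both crushed libraries. The transcripts placed on Rgs16 gave a log2 ratio of -1.09, but held 0.0445% of its counts in AKBA. Emid1, a matrix protein gene, stood at 17.9, 38.6 and 106 CPM. Placed transcripts held 8.70% of the AKBA counts of Myo5b and 1.01% of those of Emid1, and their sums were under 2-fold. Igfn1, Eef1a2 and Adssl1, at 0.152, 0.303 and 13 CPM (Igfn1), 1.89, 2.41 and 18 CPM (Eef1a2) and 1.83, 2.96 and 15.6 CPM (Adssl1), are genes of skeletal muscle that its list did not hold, though Eef1a2 is also neuronal. With these and 8 further muscle or hair genes added to the lists, 638 genes were higher and 339 lower.

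The 15 lowest ratios ran from -2.47 to -4.85 and were largely lipid genes. Beside Scd, Me1, Pnpla3, Thrsp, Fasn and Rbp4 they included the adipokine Serpina12 (vaspin) at 40.6, 1.55 and 1.88 CPM and Angptl8, an inhibitor of lipoprotein lipase, at 40.7, 9.59 and 4.46 CPM. Pyruvate carboxylase (Pc), which feeds citrate to fat synthesis, stood at 582, 217 and 104 CPM, and the carboxylesterase Ces2g at 49.1, 21.1 and 7.44 CPM. The rest were Hydin and the dynein heavy chain Dnah5, both genes of motile cilia, at 25.6, 7.95 and 1.23 CPM (Hydin) and 11.1, 2.65 and 0.108 CPM (Dnah5), the galectin relative Grifin at 99.5, 44.1 and 7.8 CPM, Mpa2l at 27.2, 11.7 and 2.31 CPM and Fam57b at 14.3, 3.21 and 1.65 CPM. In 14 of these 15 genes the untreated crushed library lay between sham and AKBA. The exception was Serpina12, where the untreated crushed library was slightly below AKBA.

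**Figure D5:**
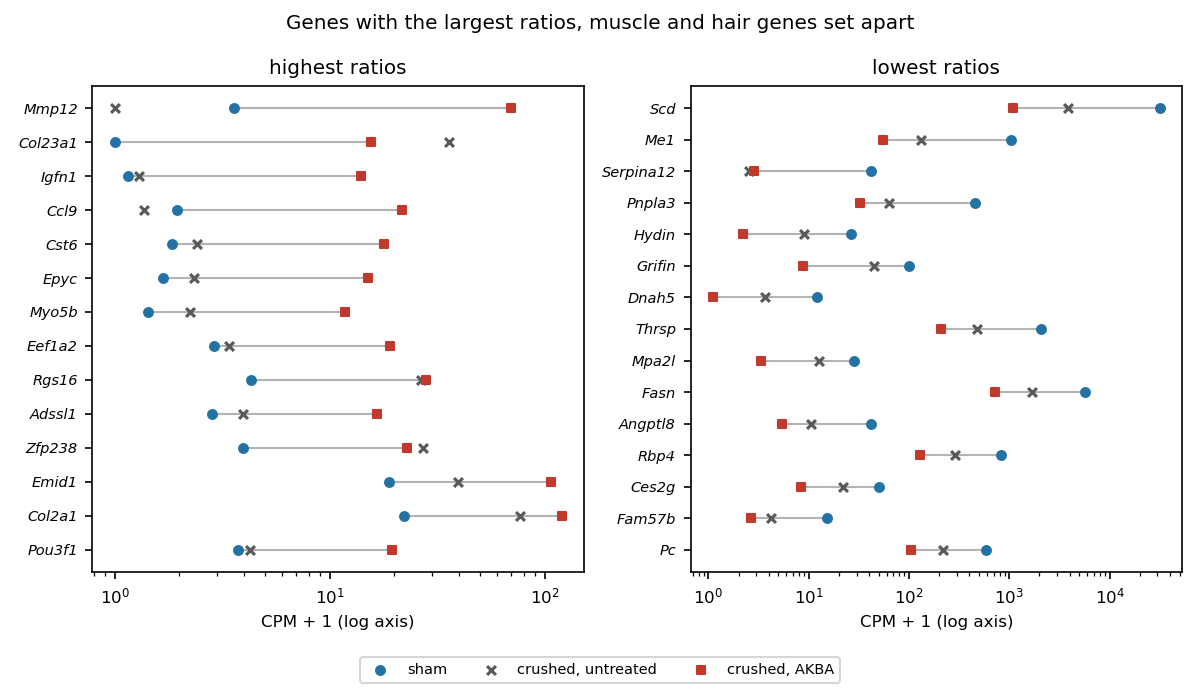
Levels in the sham (circle), untreated crushed (cross) and AKBA (square) libraries of 14 of the 15 named genes with the highest and of the 15 with the lowest ratio of AKBA to sham, as CPM + 1 on a log axis. Among the highest genes the untreated library has no common place, and for 14 of the 15 lowest it lies between sham and AKBA.

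In all, 20 genes had 0 counts in sham and at least 5 CPM in AKBA, each at least 111.9-fold above the 3 counts that 0 allows. Of these, 8 were hair genes, 1 was Myh8 and 8 carry only locus names. The other 3 were Col23a1, the proline synthesis gene Aldh18a1 at 0, 0 and 6.45 CPM, and the zinc finger gene Zfp74 at 0, 8.82 and 7.44 CPM. The reverse held for 4 genes, 3 with locus names and the protocadherin Pcdhga5 at 5.63, 3.99 and 0 CPM. Protocadherin genes share sequence with their neighbours, so the counts of Pcdhga5 are uncertain.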

How the data were processed

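RNA of sciatic nerve was measured in 1 library per group. Ribosomal RNA was captured on biotinylated probes and cDNA made from random primers, per the labels' protocols. The submitters' processing notes list HISAT2, StringTie, bcl2fastq 2.0, limma and DESeq2 without a role, and mm10, a mouse build, whereas the rows carry rat identifiers. Strand setting and filters are not stated there. What the authors deposited are raw counts for genes and transcripts. The untreated crushed column carried 2 extra text characters after each value in the deposited table and was entered as the unit other. These characters were removed.

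CPM was computed with 5 ribosomal RNA rows left out (Rn45s, Rn18s, mt-Rnr1, mt-Rnr2 and LOC108351097), with a pseudocount of 1 CPM and a filter of a mean of at least 1 CPM. A ratio of at least 2-fold was counted. The largest CPM that a count of 0 allows (taken as 3 counts) was 0.0457 in sham, 0.0350 in the untreated crushed library and 0.0361 in AKBA. Exact Clopper-Pearson intervals at 95% gave a gene at 1 CPM in both libraries a ratio interval of 0.710 to 1.39, one at 5 CPM 0.865 to 1.16 and one at 100 CPM 0.968 to 1.03. They take no pseudocount and cover counting error only. The whole interval lay past 2-fold for 595 of the 649 higher and 326 of the 339 lower genes. Factors of TMM (edgeR 4.0.16) and DESeq2 1.42.0 were tried as scaling alternatives, under R 4.3.3. The other steps ran in Python 3.11.15, and were tested on simulated data. RefSeq promoters are of assembly GRCr8, and no other coordinates were used.

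The comparison, its 40 gene lists and their members were chosen with earlier results of these data known. Named were, outside muscle and hair, the 15 highest and the 15 lowest ratios of genes that have a symbol and reach a mean of 5 CPM, and genes at 0 in one library and at least 5 CPM in the other. In each list they were the first 3 kept members and up to 6 with the largest ratios past 2-fold, and 5 for muscle and for hair. Other genes were named after their values were seen. Some genes that these rules name are not reported here and are left out of the plots that label genes, while counts and medians of lists include them.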

Additional observations from a re-analysis of the deposited data

Results flagged for a closer look

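The ribosomal RNA row LOC108351097, left out of all levels, held 81422 counts in the AKBA library and 0 counts in the sham and untreated crushed libraries. It is given here because it is a signal in data outside the comparison, above the level in the control library.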

How the results depend on the processing

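No paired analysis was possible because each group had 1 library. For the same reason no library could be left out. The counts of genes at least 2-fold higher and lower, 775 and 344 of all kept genes and 649 and 339 with muscle and hair set apart, depended on the pseudocount and the threshold. A pseudocount of 5 CPM gave 342 and 204, or 262 and 200 with muscle and hair set apart. A threshold of 1.5-fold gave 2277 and 1008, or 2142 and 998, and one of 4-fold 137 and 52, or 56 and 52. The other scalings and filters and sums of transcripts kept these counts within 1.5 times. Sums of transcripts leave out transcripts that no gene could be given to, since 31035 of 55767 were placed. Single genes were tried if past 2-fold and among the extreme ratios or the members of most lists, and not all of them are named above. Of 161 such genes, 11 were no longer past 2-fold with sums of transcripts. The transcripts placed held 0% to 30.8% of the AKBA counts of 10 of these 11 and 77.8% of those of Myh11. Among the 11, 4 changed direction, to log2 ratios of -1.09 for Rgs16, 2.0 for Lgals12, -1.95 for Col11a2 and -0.62 for Lmod1. Of the list medians taken relative to all genes, 443 values stayed within the members' median counting error and 37 moved. Signs changed in 5 lists whose medians lay close to that of all genes, among them sphingolipid synthesis and neutrophil genes with sums of transcripts. Alternatives chosen after seeing the data left the fat cell and fatty acid genes out of the total (574 higher and 409 lower with muscle and hair set apart) or set them apart as well (649 and 308). Depth limits the ratios of genes near 1 CPM. Of 172 single genes tried, a pseudocount of 5 CPM put 38 under 2-fold, and TMM or DESeq2 scaling 16. Nothing here measures the spread between animals.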
